A study of Homo sapiens with 4 samples.

Results

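The 10 genes described here, CD44, CD24, ALDH1A3, PROCR, SOX9, SOX4, NR2F1, BHLHE40, BHLHE41 and AXL, are used in the field as markers of breast cancer cells with stem-like behaviour or of dormant disseminated tumour cells. They were taken by name from a table of 58735 genes, and each matched 1 row. All 10 were among the 14585 genes kept for comparison, those averaging 1 CPM or more (counts scaled to the library total). The measurements come from bulk RNA sequencing of the established human breast cancer line MDA-MB-231, a triple-negative line, transduced with a TetOn-H2BeGFP reporter that makes a green fluorescent histone under doxycycline. All 4 populations came from cells given doxycycline at 5 μg/ml for 3 days, loaded with the dyes Claret and Violet, and left for a 12-day chase, in which each division dilutes every label. The slow-cycling populations Claret, eGFP and Violet were the 1% of cells keeping most of that label, and for Bulk the sort used no fluorescence gate. Each population gave 1 library, so no difference below has a replicate check, and a test on reads compares those libraries, not the conditions. Comparisons against Bulk all share its 1 library, so agreement among them is not an independent repeat.

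Libraries are named by their titles, which match the column names of the count table. The treatment field of the labels gives every library another sort, and it calls the library titled Violet un-gated. Each direction below therefore holds for the titles. For the 10 genes, the values that change sign or call under the other naming are given at the end. Values of other genes, list medians and ratios between paired genes also depend on the naming and are not given under the other one. Between 15508179 and 16976909 reads were counted per library, and of these the 10 genes took 24950 to 29255. MKI67, a proliferation marker, fell in the libraries titled Claret, eGFP and Violet relative to the library titled Bulk, with log2 ratios of -2.87, -3.31 and -2.89. The defining markers of a triple-negative, mesenchymal line were checked. The receptor genes PGR and ESR1 had 0 and 3 to 7 reads, the epithelial cadherin CDH1 had 0 to 3, and the mesenchymal filament VIM had 12507 to 18488. ERBB2 was read at 1415 to 1542. Of 6 leukocyte and endothelial markers, PECAM1 passed the filter, at 54 to 87 reads, CD3E had no read, and the summed level of the 6 was 4.03 to 6.35 CPM. In RNA from a pool of cells, fewer cells that express a gene and less RNA of it per cell cannot be told apart.

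CD44 is a surface receptor for hyaluronan, and CD24 is a small, heavily glycosylated surface protein. Breast tumour cells with much CD44 and little CD24 have been described as able to seed tumours in mice, and aldehyde dehydrogenase activity, to which ALDH1A3 contributes in many breast lines, marks an overlapping fraction. PROCR, the endothelial protein C receptor, marks a mammary stem cell population and some triple-negative cells, and SOX9 and SOX4 are transcription factors of the SRY-box family tied to stem-like and mesenchymal states. NR2F1 is an orphan nuclear receptor used as a marker of dormant disseminated cells in breast, prostate and head and neck cancer. BHLHE40 and BHLHE41, also called DEC1 and DEC2, are transcriptional repressors that bind E-boxes and feed back on the circadian clock, and BHLHE41 has been described as a dormancy factor. AXL is a receptor tyrosine kinase of the TAM family, activated by the ligand GAS6, and is abundant in mesenchymal breast cancer lines.

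Levels per gene length spanned a wide range, given in FPKM, fragments scaled to transcript length and library size, as the authors deposited them. AXL was the highest, at 119 to 148 FPKM across the 4 libraries, followed by BHLHE40 (43.3 to 94.6), CD44 (33.0 to 39.8), SOX9 (26.0 to 34.7), NR2F1 (17.3 to 25.3) and PROCR (15.4 to 23.5). SOX4 (5.24 to 7.92), CD24 (1.18 to 3.66), BHLHE41 (1.45 to 1.74) and ALDH1A3 (0.596 to 0.713) were the lowest. Of the genes kept, 1.47% had a higher mean FPKM than AXL and 90.1% a higher one than ALDH1A3. Ranges of neighbours in this order overlapped for CD44 and SOX9, for NR2F1 and PROCR and for CD24 and BHLHE41. CD24 stood above BHLHE41 in 3 of the 4 libraries, Bulk being the exception.

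**Figure D1:**
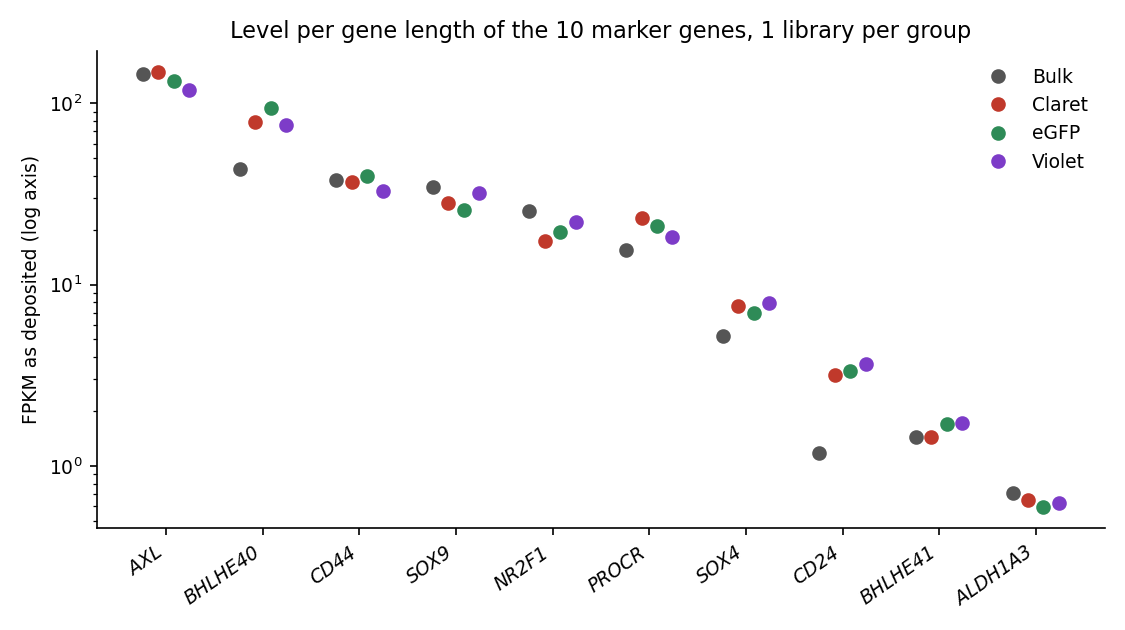
Level of the 10 marker genes in FPKM as deposited, on a log axis, with 1 point per library and genes ordered by their mean. CD24 and BHLHE40 have their Bulk point apart from the other 3, while the 4 points of AXL, CD44 and ALDH1A3 lie close together.

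Against Bulk, CD24 rose in all 3 slow-cycling libraries and BHLHE40 in eGFP, and no gene of the set fell by the rule used. That rule calls a gene when an exact binomial test on reads gives an adjusted p under 0.05 and the log2 ratio is at least 1 in size. It called 1 of the 10 genes higher in Claret, where 11.2% of all genes were called higher, 2 of 10 in eGFP against 11.9%, and 1 of 10 in Violet against 11.6%. In either direction the rule called 18.0%, 19.5% and 18.5% of all genes. None of the 10 was called lower, where 6.72%, 7.64% and 6.82% of all genes were. The set had median log2 ratios of 0.03, 0.18 and 0.11 in Claret, eGFP and Violet, beside -0.01, -0.01 and 0.01 over all genes kept. Counts of 1 or 2 genes in 10 are near the shares of all genes.

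By adjusted p alone, with no demand on size, 4 of the 10 genes (CD24, PROCR, SOX4 and BHLHE40) were higher in all 3 slow-cycling libraries, and NR2F1 was lower in all 3. Over all genes the same pattern held for 27.1% on the higher side and 29.8% on the lower side. In Claret, eGFP and Violet 7, 8 and 7 of the 10 genes passed in either direction, beside 68.8%, 69.9% and 69.5% of all genes. With no test, 5 of the 10 lay above Bulk in all 3 libraries and 3 below, beside 42.6% and 42.8% of all genes. CD44 and AXL passed in opposite directions in different libraries, SOX9 passed in Claret and eGFP on the lower side, and BHLHE41 and ALDH1A3 passed in none. The markers of stem-like and dormant cells did not share 1 direction in these libraries.

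**Figure D2:**
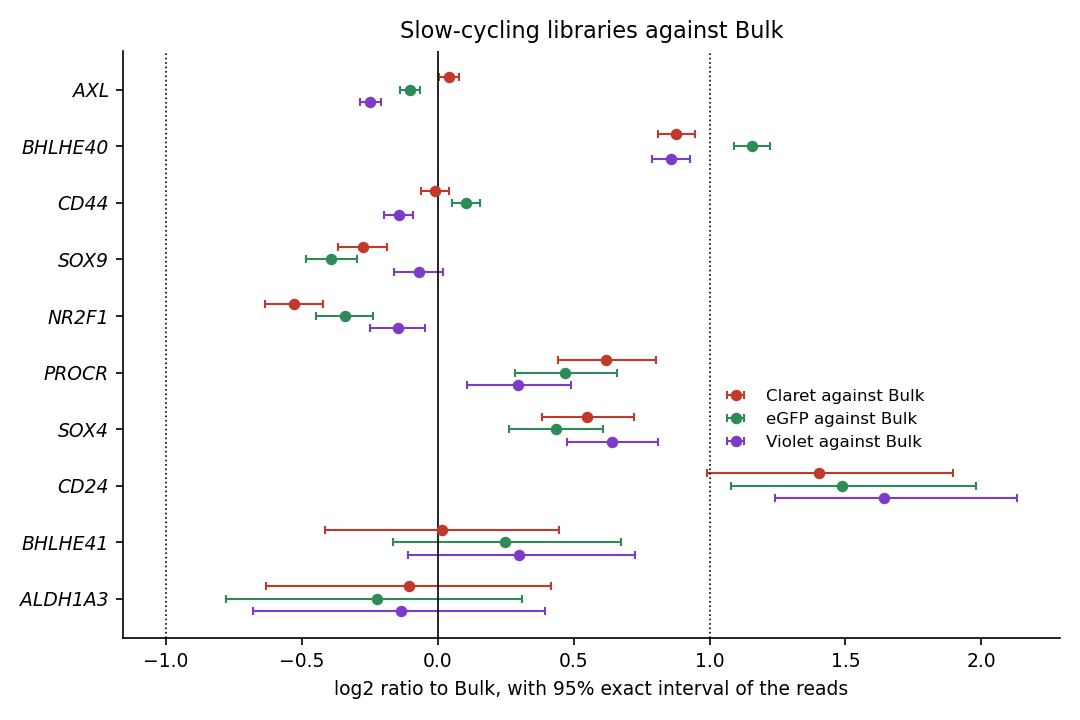
Log2 ratio of each slow-cycling library to Bulk for the 10 genes (horizontal axis), with 95% exact intervals that cover counting error only; dotted lines mark a log2 ratio of 1 in size. CD24 lies at 1.40 to 1.64 in the 3 libraries, BHLHE40 at 0.86 to 1.16, and NR2F1 at -0.53 to -0.15.

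**Figure D3:**
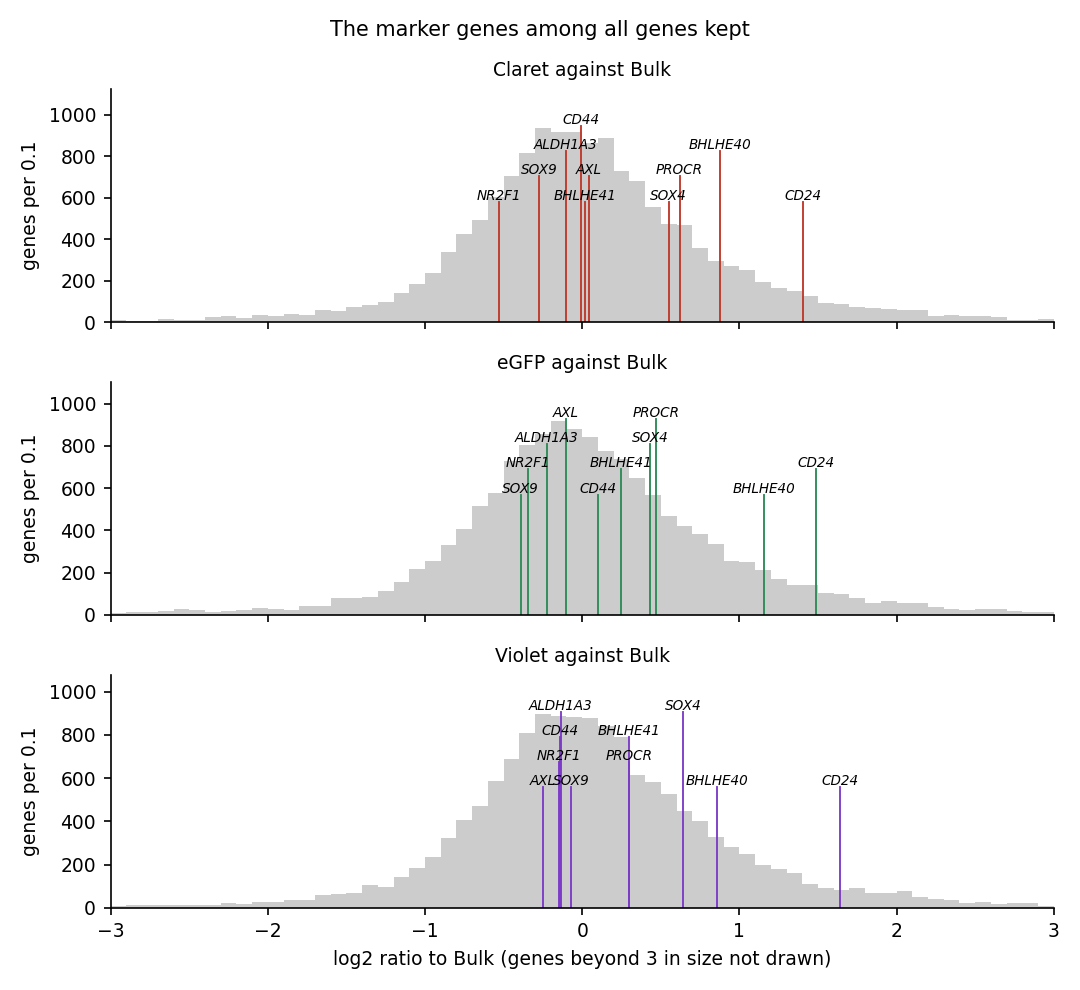
Number of genes per 0.1 of log2 ratio to Bulk among the 14585 genes kept, 1 panel per slow-cycling library, with the 10 marker genes as coloured lines; the 105 to 165 genes beyond 3 in size are not drawn. Most markers lie in the body of the distribution, and CD24 lies to its right, with 4.66% to 6.08% of genes above it.

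CD44 (ENSG00000026508, chromosome 11, 35138870 to 35232402; all coordinates are GRCh38) had 5865 Bulk reads, 6276 Claret reads, 6357 eGFP reads and 5303 Violet reads. These values were close, with eGFP the highest and Violet the lowest after scaling. Its log2 ratio to Bulk was -0.01 in Claret (95% interval -0.06 to 0.04), 0.10 in eGFP (0.05 to 0.16) and -0.14 in Violet (-0.20 to -0.09), and none was called. Scaling by summed counts put the Claret value on the other side of 0, at 0.015. The table counts the whole gene, so standard and variant-exon forms of CD44 were not separated.

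CD24 (ENSG00000272398, chromosome 6, 106969831 to 106975627) had 57 Bulk reads, 166 Claret reads, 165 eGFP reads and 182 Violet reads. All 3 slow-cycling libraries lay far above Bulk and close to each other. It rose 2.65-fold in Claret (1.99 to 3.72), 2.81-fold in eGFP (2.11 to 3.95) and 3.12-fold in Violet (2.36 to 4.38), with adjusted p of 2.0e-11, 9.0e-13 and 5.7e-16 by the exact binomial test. The Claret interval reached just under 2-fold. CD24 was called higher in all 3, as were 8.49% of all genes, with 4.92% called lower in all 3. On the scale log2(FPKM + 1) its Claret and eGFP differences were 0.93 and 0.99, under the threshold of 1, and with the filter at 10 CPM it was not tested. Of its 31-base words, 9.90% also occur in transcripts of other genes, 4.89% in the pseudogene CD24P4, which had 0 or 1 read per library.

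The CD44 to CD24 ratio was computed within each library, where no scaling between libraries enters. CD44 had 103 reads for each CD24 read in Bulk (79.3 to 136), 37.8 in Claret (32.4 to 44.4), 38.5 in eGFP (33.0 to 45.2) and 29.1 in Violet (25.1 to 34.0). The ratio was thus 2.72 times smaller in Claret than in Bulk (2.0 to 3.75), 2.67 times in eGFP (1.96 to 3.68) and 3.53 times in Violet (2.60 to 4.85). The 3 slow-cycling intervals did not reach that of Bulk. Per gene length CD44 still exceeded CD24 in every library, by 9.02 to 31.9 times in FPKM.

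**Figure D4:**
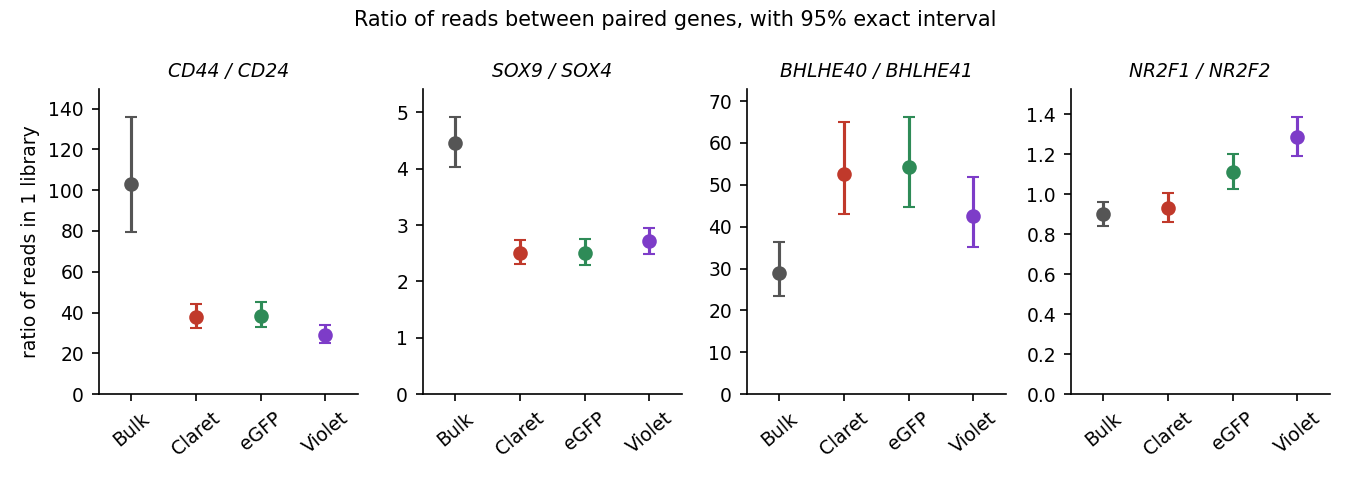
Ratio of reads between 2 genes of a pair inside each library (vertical axes, from 0), with 95% exact intervals. CD44 over CD24 is 103 in Bulk and 29.1 to 38.5 elsewhere, SOX9 over SOX4 is 4.45 and 2.51 to 2.71, BHLHE40 over BHLHE41 is 29 and 42.5 to 54.2, and NR2F1 over NR2F2 is 0.899 and 0.933 to 1.29.

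Around CD44, a list of 16 genes held hyaluronan synthases and hyaluronidases, other ligands and receptors, membrane linkers and splicing factors, and 14 passed the filter. In all 3 libraries ESRP1 rose and HMMR fell. ESRP1, an epithelial splicing factor known to promote inclusion of CD44 variant exons, had 12 Bulk reads, 140 Claret reads, 116 eGFP reads and 115 Violet reads, log2 ratios of 3.24, 3.06 and 3.06. HMMR, a hyaluronan receptor that also acts at the mitotic spindle, fell, with log2 ratios of -1.65, -2.16 and -1.45. The other calls, named after their values were seen, were HYAL1 in Violet and the synthase gene HAS2, lower in eGFP. The log2 ratios were 0.81, 0.95 and 1.34 for HYAL1 and -0.62, -1.01 and -0.76 for HAS2. ESRP1 and HYAL1 passed the filter only through the slow-cycling libraries. The HAS2 call was lost when libraries were scaled by summed counts or corrected for GC content. Scaling by summed counts also called the paralog ESRP2 higher in Claret and Violet. The list's medians were -0.27, -0.24 and -0.10. The keratin KRT19, an epithelial marker on the identity list, rose, with log2 ratios of 1.54, 1.53 and 1.28, with no such call for the other keratins on that list, KRT8 (-0.02, -0.08 and -0.13) and KRT18 (0.18, 0.07 and 0.22). The epithelial gene EPCAM, at 28 to 61 reads, was at -0.07, 0.35 and -0.71, and CDH1 had at most 3 reads.

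ALDH1A3 (ENSG00000184254, chromosome 15, 100877714 to 100916626), which oxidises retinal to retinoic acid, had 64 Bulk reads, 64 Claret reads, 55 eGFP reads and 58 Violet reads. The 4 libraries could not be distinguished at this depth. Its log2 ratios were -0.10 (-0.63 to 0.41), -0.22 (-0.78 to 0.31) and -0.14 (-0.68 to 0.39), and on a linear scale the intervals reached from 0.583 to 1.33 times the Bulk level. The antisense gene AC015712.2, with 21 to 31 reads, shares 27.5% of the exonic bases of ALDH1A3, and since strand use in the counting is not given in the sources used here, reads from that stretch cannot be told apart.

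Of 18 other aldehyde dehydrogenase genes, 12 passed the filter, and the same 2 were called in each library; scaling by summed counts added ALDH3B1 in Claret. ALDH1L2, a mitochondrial folate enzyme, rose from 7 reads to 39, 43 and 36 (log2 ratios 2.09, 2.31 and 2.08). ALDH1L2 passed the filter only through the slow-cycling libraries. ALDH16A1 fell from 962 reads to 445, 354 and 385 (-1.22, -1.45 and -1.32). ALDH1A1, the isoform most often tied to the stem cell assay, had 0 or 1 read in every library. The medians of the 12 were 0.31, 0.34 and 0.27. Of 17 genes of retinoic acid synthesis, binding and degradation, 9 passed the filter and none was called by the exact binomial rule. RDH10, a retinol dehydrogenase named after its values were seen, was at 0.82, 0.96 and 0.82. The list's medians were 0.50, 0.55 and 0.48, and 0.33, 0.46 and 0.32 after the GC correction.

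PROCR (ENSG00000101000, chromosome 20, 35172073 to 35216240) had 407 Bulk reads, 675 Claret reads, 569 eGFP reads and 500 Violet reads. Bulk was the lowest library and Claret the highest. The log2 ratios were 0.62 in Claret (0.44 to 0.80), 0.47 in eGFP (0.28 to 0.66) and 0.30 in Violet (0.11 to 0.49). None reached 2-fold, and at a threshold of 1.5-fold Claret alone was called. The antisense gene AL356652.1, which shares 12.9% of the exonic bases of PROCR, had 0 to 2 reads. Of the 31-base words of PROCR, 21.8% also occur in transcripts of other genes, 11.1% in AL356652.1 and 2.17% in P2RX4. P2RX4 had 206 Bulk reads, 590 Claret reads, 588 eGFP reads and 496 Violet reads. Whether reads from shared stretches enter the PROCR counts was not tested.

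The genes that act with PROCR at the cell surface included several that rose. Of 9 genes of protein C activation, coagulation and protease-activated receptors, 7 passed the filter and the same 3 rose in each library, among them THBD and F2RL2. Of all genes, 11.2%, 11.9% and 11.6% were called higher in Claret, eGFP and Violet, and 8.49% in all 3. THBD, thrombomodulin, the cofactor for protein C activation, had 547 Bulk reads, 1327 Claret reads, 1402 eGFP reads and 1161 Violet reads (log2 ratios 1.17, 1.34 and 1.08). F2RL2, the protease-activated receptor PAR3, went from 44 reads to 170, 142 and 124 (1.80, 1.63 and 1.45). The initiator F3, tissue factor, was higher by 0.42, 0.69 and 0.36, and the thrombin receptor F2R by 0.33, 0.13 and 0.34, with no call. PROC, the protein C gene, had at most 7 reads. The list's medians were 0.59, 0.69 and 0.74.

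SOX9 (ENSG00000125398, chromosome 17, 72121020 to 72126420) had 2122 Bulk reads, 1889 Claret reads, 1632 eGFP reads and 2019 Violet reads. Bulk was the highest library, with Violet close to it. The log2 ratios were -0.28 in Claret (-0.37 to -0.19), -0.39 in eGFP (-0.49 to -0.30) and -0.07 in Violet (-0.16 to 0.02), where the exact binomial test gave an adjusted p of 0.152.

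SOX4 (ENSG00000124766, chromosome 6, 21592768 to 21598619), in contrast, had 477 Bulk reads, 754 Claret reads, 651 eGFP reads and 744 Violet reads, with Bulk the lowest. Its log2 ratios were 0.55 (0.39 to 0.72), 0.43 (0.26 to 0.61) and 0.64 (0.47 to 0.81), all under 2-fold, and at 1.5-fold Violet alone was called. Within a library the SOX9 to SOX4 read ratio was 4.45 in Bulk (4.03 to 4.92), 2.51 in Claret (2.30 to 2.73), 2.51 in eGFP (2.29 to 2.75) and 2.71 in Violet (2.49 to 2.96). It was 1.78, 1.77 and 1.64 times smaller than in Bulk. The balance of the 2 factors differed from Bulk in the same direction in each slow-cycling library, and these comparisons share the 1 Bulk library.

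Of 17 other SOX genes, 7 passed the filter, 5 had no read in any library, and none was called in all 3. The 2 calls, named after their values were seen, were SOX18 in Claret (12 reads against 33 in Bulk, log2 ratio -1.42) and SOX6 in Violet (129 against 57, 1.15). SOX18 was at -0.39 in eGFP and -0.04 in Violet, and SOX6 was at 0.58 in Claret and 0.70 in eGFP. SOX2, a pluripotency factor, had 8 reads in Bulk and 0 or 1 elsewhere. Under DESeq2 size factors and the GC correction SOX15 was also called lower in eGFP.

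NR2F1 (ENSG00000175745, chromosome 5, 93583224 to 93594615), a dormancy marker, had 1699 Bulk reads, 1270 Claret reads, 1351 eGFP reads and 1533 Violet reads. Every slow-cycling library lay below Bulk, Claret the furthest and Violet the closest. The log2 ratios were -0.53 (-0.63 to -0.42), -0.34 (-0.45 to -0.24) and -0.15 (-0.25 to -0.05), none of them 2-fold, and over the alternatives on counts that kept the titles they ranged from -0.64 to -0.50, -0.48 to -0.32 and -0.26 to -0.10. The antisense gene NR2F1-AS1, which shares 3.66% of its exonic bases, counted 371 Bulk reads and 402 to 428 elsewhere, with log2 ratios of 0.07, 0.10 and 0.21.

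The relatives of NR2F1 did not follow a common direction. NR2F2 (COUP-TFII) had 1889 Bulk reads, 1361 Claret reads, 1218 eGFP reads and 1192 Violet reads, log2 ratios of -0.58, -0.64 and -0.66. NR2F6 was at 0.10, 0.20 and 0.06. The NR2F1 to NR2F2 read ratio was 0.899 in Bulk (0.842 to 0.961), 0.933 in Claret (0.864 to 1.01), 1.11 in eGFP (1.03 to 1.20) and 1.29 in Violet (1.19 to 1.39). NR2F1 held a larger share of the pair in eGFP and Violet than in Bulk, while both genes lay below their Bulk level.

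A list of 27 other genes tied to tumour dormancy, which includes NR2F2, NR2F6 and NR2F1-AS1, had 21 that passed the filter. DDR2, a collagen receptor, rose in all 3 libraries, from 20 reads to 66, 60 and 55 (log2 ratios 1.53, 1.48 and 1.37). The other calls, named after their values were seen, were the stress-response gene NDRG1 in Violet and, lower in eGFP, the matrix genes THBS1 and TIMP3. The 3 log2 ratios were 0.64, 0.85 and 1.28 for NDRG1, -0.99, -1.06 and -0.86 for THBS1, and -0.99, -1.03 and -0.77 for TIMP3. DESeq2 size factors also called THBS1 and TIMP3 in Claret, and scaling by summed counts left TIMP3 uncalled. The kinase p38α (MAPK14), a stress kinase tied to dormancy and named after its values were seen, was at -0.61, -0.66 and -0.62, with no call. TGFB2 was at 0.02, 0.03 and 0.35, CDKN1B at 0.13, 0.11 and 0.14. BMP7 and NANOG had no read, and RARB, a retinoic acid receptor, had 1 to 6. The list's medians were 0.02, 0.03 and 0.07, and the eGFP median was -0.05 after the GC correction.

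BHLHE40 (ENSG00000134107, chromosome 3, 4979116 to 4985323) had 2581 Bulk reads, 5110 Claret reads, 5801 eGFP reads and 4675 Violet reads. Each slow-cycling library held nearly 2 reads or more for every Bulk read, with eGFP the highest. It rose 2.23-fold in eGFP (2.13 to 2.33) and was 1.84-fold higher in Claret (1.75 to 1.93) and 1.81-fold higher in Violet (1.73 to 1.90), which is under the 2-fold threshold. The eGFP value was itself above the others, by a log2 ratio of 0.30 over Violet (0.24 to 0.35), and Claret lay at -0.28 against eGFP (-0.33 to -0.22).

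BHLHE41 (ENSG00000123095, chromosome 12, 26120026 to 26125127) had 89 Bulk reads, 97 Claret reads, 107 eGFP reads and 110 Violet reads, and the libraries could not be separated at this depth. Its log2 ratios were 0.02 (-0.41 to 0.45), 0.25 (-0.17 to 0.68) and 0.30 (-0.11 to 0.73). The neighbouring gene SSPN shares 4.10% of its exonic bases and had 41 reads in Bulk and 90 to 115 elsewhere. BHLHE40 reads outnumbered BHLHE41 reads 29 times in Bulk (23.5 to 36.2), 52.7 times in Claret (43.1 to 65.1), 54.2 times in eGFP (44.8 to 66.3) and 42.5 times in Violet (35.2 to 51.8). BHLHE41, the paralog described as a dormancy factor, was the minor one in every library.

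Since BHLHE40 and BHLHE41 bind E-boxes, the 250 bases before each RefSeq start of the marker genes were searched for that hexamer, CACGTG, and, because the series title names AP-1, for TGANTCA and for the CRE-like TGACGTCA. Each of these motifs reads the same on both strands, and none contains another. Windows were found for 9 of the 10 genes, SOX9 not being matched. BHLHE40 and BHLHE41 each held 1 CACGTG, and the other 7 genes held none; no window of the set held TGANTCA or TGACGTCA. Over all 35116 windows of this length, 6.345% held CACGTG, 6.57% TGANTCA and 1.65% TGACGTCA. Counted by gene, as for the set, CACGTG was in 7.73% of 27305 genes. The 30 bases around the 2 matches are shown 5′ to 3′ on the strand of each gene, with the E-box in capitals, from RefSeq on GRCh38.p14. That of BHLHE40 (chr3:4979187-4979216, plus strand) has its E-box 245 bases before the RefSeq start, and that of BHLHE41 (chr12:26125068-26125097, minus strand) 48 bases before it. Both stretches lie inside the gene bounds given above.
BHLHE40: tccaaCACGTGagactcatgtgatgaagcc
BHLHE41: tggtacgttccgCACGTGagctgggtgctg
A match describes the letters of the window and is not a measured site.

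Of 14 other clock genes, 12 passed the filter, and none was called in all 3 libraries or called higher in any, although scaling by summed counts called DBP higher in Violet. PER2 was lower in Claret (-1.11) and eGFP (-1.15) and at -0.32 in Violet, and PER3 was lower in eGFP (-1.13) and at -0.88 in Claret and -0.11 in Violet; both were named after their values were seen. Among their relatives, CRY1 was also lower, at -0.35, -0.49 and -0.37. PER1, at 0.32, 0.57 and 0.52, and CRY2, at 0.39, 0.63 and 0.28, were higher, and none of these was called. NPAS2, at 0.85, 0.87 and 0.94, and NR1D1, at 0.85, 0.94 and 0.94, were higher in all 3 libraries without reaching 2-fold. CLOCK, at -0.54, -0.48 and -0.34, and NR1D2, at -0.36, -0.49 and -0.18, were lower in all 3 with no call. The list's medians were -0.01, -0.09 and -0.01, and with summed counts 0.01 in Claret and 0.03 in Violet.

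AXL (ENSG00000167601, chromosome 19, 41219203 to 41261766), the most abundant gene of the set, had 11681 Bulk reads, 12954 Claret reads, 10976 eGFP reads and 9826 Violet reads. Claret was marginally above Bulk after scaling and the other libraries below it. The log2 ratios were 0.04 (0.01 to 0.08), -0.10 (-0.14 to -0.06) and -0.25 (-0.29 to -0.21), and the GC correction put Claret at -0.018. At this depth the intervals are narrow, and they cover counting error only.

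AXL's relatives TYRO3 and MERTK lay on opposite sides of Bulk without reaching 2-fold. TYRO3 counted 756 Bulk reads and 441 to 483 elsewhere, log2 ratios of -0.75, -0.71 and -0.77. MERTK counted 399 Bulk reads and 654 to 695 elsewhere, log2 ratios of 0.69, 0.70 and 0.76. The ligand GAS6 was level, at 0.02 (-0.09 to 0.13), 0.10 (-0.02 to 0.21) and -0.11 (-0.22 to 0.01). PROS1, at 0.52, 0.48 and 0.54, gave the list's medians, and ADAM17 was at 0.86, 0.71 and 0.86. By the exact binomial rule, 0 of the 5 genes of this list were called.

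Other genes used as stem-like markers formed a list of 22, of which 10 passed the filter. KLF4, a transcription factor, rose from 483 reads to 1293, 1241 and 1153 (log2 ratios 1.31, 1.35 and 1.25). LGR6, an R-spondin receptor, rose from 7 reads to 142, 88 and 86 (3.90, 3.31 and 3.29). LGR6 passed the filter only through the slow-cycling libraries, where it is high. ABCG2, the efflux pump behind the side-population assay, fell from 63 reads to 21, 29 and 19 (-1.60, -1.08 and -1.63), although the GC correction put the eGFP value short of a call. The surface integrins ITGA6 and ITGB1, named after their values were seen, were higher by 0.88, 0.67 and 0.98 and by 0.40, 0.44 and 0.43. The rule called neither, though ITGA6 was called in Violet after the GC correction or with summed counts. Another integrin gene of the list, ITGB3, was at -0.12, -0.54 and 0.53, with no call against Bulk. BMI1 was lower in all 3 libraries, at -0.59, -0.53 and -0.40, also with no call. LGR5, which did not pass the filter, had 11 reads in Bulk and 1 or 2 elsewhere. NANOG, CXCR4 and CXCR1 had no read. The medians of the 10 were -0.08, 0.16 and 0.26, so that Claret stood on the other side of 0.

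Among the slow-cycling libraries themselves, none of the 10 genes was called in any of the 3 pairs, where the rule called few genes of any kind. For Claret against eGFP it called 0.775% of all genes, 0.322% higher and 0.453% lower, for Claret against Violet 0.802%, 0.219% higher and 0.583% lower, and for eGFP against Violet 1.01%, 0.288% higher and 0.727% lower. By adjusted p alone, 4, 5 and 6 of the 10 differed, beside 12.6%, 17.4% and 17.2% of all genes. This test passes smaller differences in genes with more reads, such as AXL with 9826 to 12954 reads a library. The shares of all genes were not matched to the set in depth. The largest differences were in NR2F1, which was lower in Claret than in Violet by a log2 ratio of -0.38 (-0.49 to -0.27), PROCR, higher in Claret than in Violet by 0.32 (0.15 to 0.49), and SOX9, lower in eGFP than in Violet by -0.32 (-0.42 to -0.23). AXL stood in the order Claret, eGFP, Violet, with 0.14 (0.11 to 0.18) between Claret and eGFP and 0.15 (0.11 to 0.19) between eGFP and Violet. NR2F1 stood in the opposite order, with -0.18 (-0.30 to -0.07) and -0.20 (-0.30 to -0.09). CD24, BHLHE41 and ALDH1A3 had intervals that included 0 in all 3 pairs.

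**Figure D5:**
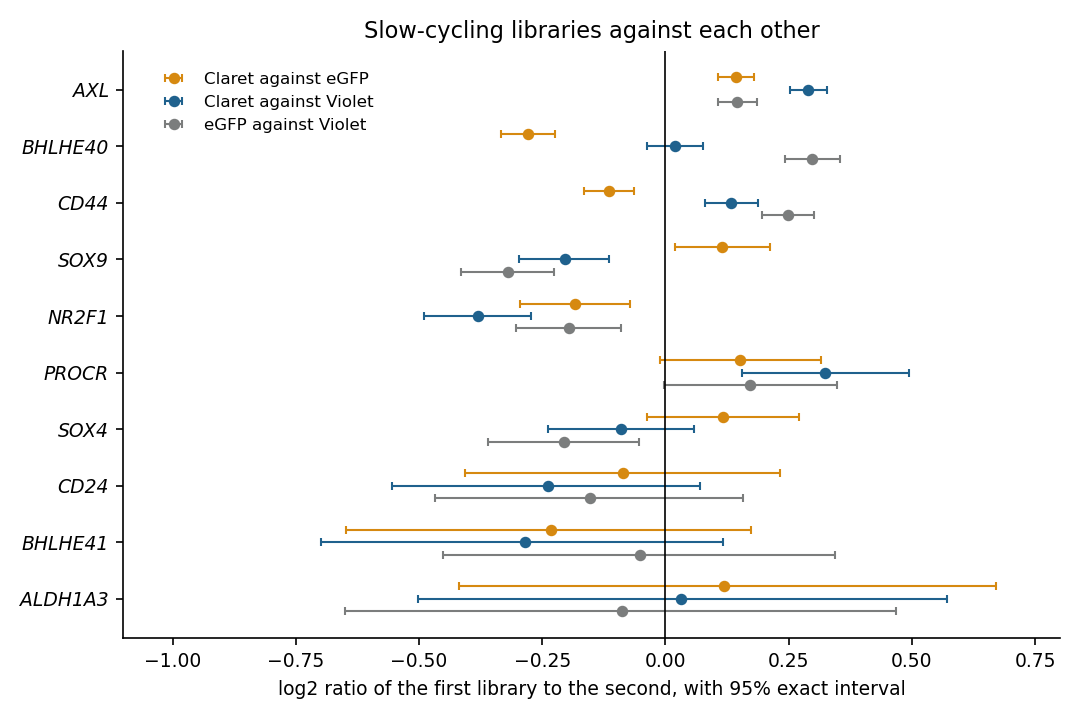
Log2 ratio of the first named slow-cycling library to the second for the 10 genes (horizontal axis), with 95% exact intervals that cover counting error only. All values lie between -0.38 and 0.32, well inside a 2-fold difference, and NR2F1 and AXL are on opposite sides of 0 in every pair.

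Among the listed genes beside the set, 5 were called between slow-cycling libraries, all named after their values were seen. CEMIP, which degrades hyaluronan, was lower in Claret than in Violet (489 against 913 reads, log2 ratio -1.01), as was SOX18 (12 against 32, -1.38). ITGB3 (62 against 131, -1.07) and PER3 (28 against 58, -1.01) were lower in eGFP than in Violet, and EPCAM was higher in eGFP than in Violet (61 against 28, 1.06).

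CD24, as the gene of the set called in all 3 libraries, was compared with 9748 other protein-coding genes of at least 10 CPM by the Euclidean distance over the 3 log2 ratios to Bulk. The nearest was SLC2A10, a facilitative sugar transporter gene, with 100 Bulk reads, 296 Claret reads, 287 eGFP reads and 317 Violet reads, at a distance of 0.04. The next was LMTK3, a kinase gene, with 68, 201, 211 and 221 reads, at 0.11. In all, 18 genes lay within 0.2, and the 3 ratios share the Bulk library. The 95% interval of the CD24 log2 ratio in Claret, 0.99 to 1.89, is wider than these distances. The order of neighbours is therefore not separated from counting error. CD24 itself averaged under the 10 CPM asked of the other genes.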

How the data were processed

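RNA was sequenced from 4 libraries, and the authors deposited whole-number read counts per gene and FPKM values. Per the submitters' processing notes, HISAT2 2.0.5 and featureCounts 1.5.0-p3 were used; the genome build, strand setting and treatment of multi-mapping reads are not given in the sources used here. Start and end coincide with GENCODE 29 (GRCh38) for 58724 of 58735 genes. The deposited FPKM values are the counts divided by gene length and by a library total of 96.9% to 103.5% of the summed counts. From the counts, genes with a mean of at least 1 CPM were kept. This mean is over 4 libraries, 3 of them slow-cycling, so the filter favours genes higher in those 3. LGR5 and SOX2, highest in Bulk, were dropped and could not be called lower. Libraries were scaled by TMM (edgeR 4.0.16, R 4.3.3), and log2 ratios used a prior count of 2. With 1 library per group, no residual degrees of freedom are left for a quasi-likelihood fit, so reads of 2 libraries were compared by a two-sided exact conditional binomial test (scipy 1.17.1), Benjamini-Hochberg adjusted over 14585 genes in each of 6 pairs. Intervals are 95% exact (Clopper-Pearson); no molecular identifiers are described, so intervals and the limit of 3 reads behind a count of 0, 0.177 to 0.193 CPM, cover counting error only. The script was tested on simulated data. Besides the members, 11 gene lists were used, each reported with its counts. Named genes are the members, list genes called in all 3 libraries (at most 4 per direction), 9 fixed relatives and the 2 genes nearest to a member called in all 3. Other genes in the text were named after their values were seen. Some list genes that this rule names are not reported here. The members and lists were chosen with earlier results of these data known. The 10 alternatives are described at the end.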

Additional observations from a re-analysis of the deposited data

Results flagged for a closer look

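CD44 lay on opposite sides of Bulk in slow-cycling libraries, with 95% intervals that excluded 0: its log2 ratio was 0.10 in eGFP and -0.14 in Violet. The direct log2 ratio of eGFP to Violet was 0.25 (0.20 to 0.30; exact binomial test on 1 library each, adjusted p = 3.03e-18).

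AXL lay above Bulk in Claret (0.04) and below it in Violet (-0.25). The direct log2 ratio of Claret to Violet was 0.29 (0.25 to 0.33; exact binomial test on 1 library each, adjusted p = 1.06e-48). The GC correction put AXL in Claret at -0.018, also below Bulk. Both differences are under 2-fold and have no replicate check.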

How the results depend on the processing

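Of the 10 alternatives, scaling by summed counts put CD44 in Claret against Bulk at a log2 ratio of 0.015 and BHLHE40 in Claret against Violet at -0.0022, DESeq2 size factors put BHLHE41 in Claret against Bulk at -0.0027, log2(FPKM + 1) put it at -0.0016, and the GC correction put AXL there at -0.018; these are changes of sign in values near 0. With a filter at 10 CPM, CD24, BHLHE41 and ALDH1A3 were not tested, the counts called higher in Claret, eGFP and Violet were 0, 1 and 0 of 7, and the Violet median was -0.071, from fewer genes. On log2(FPKM + 1), where the call is by fold alone, the counts were 0 in Claret and 1 in eGFP. At a fold threshold of 1.5 they were 3 in Claret (CD24, PROCR, BHLHE40) and 3 in Violet (CD24, SOX4, BHLHE40). The edgeR exact test with an assumed biological coefficient of variation of 0.2, no filter and a prior count of 0.5 changed no call of the 10 genes.

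Over all genes, 1640, 1731 and 1696 were called higher and 980, 1114 and 995 lower in Claret, eGFP and Violet. The counts were 612, 681 and 615 higher and 639, 747 and 715 lower at 10 CPM, 589, 633 and 533 higher and 619, 725 and 743 lower on log2(FPKM + 1), 2886, 2982 and 3037 higher and 2433, 2608 and 2423 lower at 1.5-fold, and 914, 1043 and 961 higher and 583, 687 and 620 lower with the edgeR exact test. The higher share of calls was 62.6%, 60.8% and 63.0%, against 48.9%, 47.7% and 46.2% at 10 CPM and 48.8%, 46.6% and 41.8% on log2(FPKM + 1).

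With groups named by the treatment field, the library titled Violet serves as Bulk, so this alternative exchanges libraries. The counts called higher were then 0 in Claret, eGFP and Violet, CD24 alone was lower in Claret, CD24 was called between Claret and eGFP (-1.40; 1 gene) and CD24 and BHLHE40 between Claret and Violet (CD24 -1.49; 2 genes), and BHLHE40 in eGFP against Bulk was at 0.02 with no call. The medians against Bulk were -0.11 in Claret, -0.035 in eGFP and -0.070 in Violet, all on the other side of 0. Of 60 log2 ratios, 34 changed sign, as follows. Claret against Bulk gave CD44 0.14, CD24 -1.64, ALDH1A3 0.14, PROCR -0.30, SOX9 0.071, SOX4 -0.64, NR2F1 0.15, BHLHE40 -0.86 and BHLHE41 -0.30. Against Bulk, eGFP gave CD24 -0.24, ALDH1A3 0.032, SOX4 -0.090, BHLHE41 -0.28 and AXL 0.29. Violet gave CD44 0.25, CD24 -0.15, SOX4 -0.21, BHLHE41 -0.053 and AXL 0.15. Claret against eGFP gave CD44 0.010, PROCR -0.62, SOX4 -0.55, NR2F1 0.53 and AXL -0.041. Claret against Violet gave CD44 -0.10, PROCR -0.47, SOX9 0.39, NR2F1 0.34 and BHLHE40 -1.16. For eGFP against Violet the values were CD44 -0.11, ALDH1A3 0.12, SOX9 0.12, SOX4 0.12 and BHLHE40 -0.28. The labels do not say which naming is right. MKI67 was highest in the library titled Bulk, and 18.0% to 19.5% of all genes were called between that library and each other, against 0.775% to 1.01% within the other 3. No paired analysis was possible because each group has 1 library. For CD24, ALDH1A3 and BHLHE41, at 55 to 182 reads a library, depth limits the precision.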
